A study of Mus musculus with 6 samples.

Results

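The 32 genes described here are the regulators and executors of apoptosis: BCL-2 family genes, the genes of the apoptosome, the inhibitor of apoptosis proteins, the death receptor pathway, 4 caspases and p53. They were chosen by gene symbol, from a list drawn up with earlier results of these data known. All 32 were found among the 35673 genes of the deposited count table. Their transcripts were measured by RNA sequencing of cornea from male C57BL/6J mice aged 6 to 8 weeks, in 3 Cationorm and 3 Control libraries. Cationorm is a cationic oil-in-water emulsion used as an eye drop. The protocol shared by all libraries describes contact lens-related dry eye (CLDE), made with 0.1% benzalkonium chloride in drops of 5 µL and lens wear of 6 h per day, followed for 14 days by drops of normal saline, hyaluronic acid or Cationorm. Every library, Control included, carries the condition tag CLDE and the treatment tag wild-type. The labels therefore do not say whether Control was a saline arm of the model or untreated eyes, and only the titles separate the groups. They name 1 batch and state neither separate animals nor pooling, so the spread between libraries may be technical.

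Apoptosis runs along 2 routes. In the mitochondrial route, BH3-only proteins sense stress, block the pro-survival BCL-2 proteins and release BAX and BAK, which open the outer mitochondrial membrane. Cytochrome c then leaves the mitochondrion and assembles the apoptosome with APAF1 and caspase 9. In the death receptor route, FAS and related receptors recruit FADD and caspase 8, which FLIP (Cflar) restrains. In the cornea, surface epithelial cells are shed and replaced throughout life, and benzalkonium chloride is known to kill corneal epithelial cells.

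Total counts lay between 32486043 and 38542164 in the Cationorm libraries and between 34589433 and 39193311 in the Control libraries. Levels are given as CPM, counts scaled to library size, with size factors from the trimmed mean of M values (TMM). The 8 corneal epithelium markers were detected in every library, and Krt12, the keratin of corneal epithelium, averaged 8728 ± 304 CPM in Cationorm and 8659 ± 268 CPM in Control (SD, n = 3 each). Tissues other than the cornea also contributed. All 7 retina markers (Rcvrn first) were lower in Cationorm, with sums of 737 to 2309 CPM in Cationorm and 1794 to 2784 CPM in Control. The 5 lens markers analysed (Cryaa first) summed to 1506 to 5167 CPM in Cationorm and 61.8 to 2683 CPM in Control. The 6 skeletal muscle markers (Acta1 first) ran from 39.4 to 1226 CPM in Cationorm and from 59.3 to 701 CPM in Control. None of the markers of these lists was at 0 in any library. In such bulk samples, fewer cells of a type and less RNA per cell cannot be told apart.

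None of the 32 genes passed the test between Cationorm and Control. Of 18804 genes tested with the quasi-likelihood test of edgeR, 0 were called at an adjusted p under 0.05 (0%), against 1641 at an unadjusted p under 0.05 (8.73%). DESeq2, run without that filter, called 64 of the 16706 genes to which it gave an adjusted p. Of the 32 genes, 31 had enough counts to be tested. The 31 tested genes were split, 17 higher and 14 lower in Cationorm, and their median log2 fold change was 0.0077, beside 0.0055 over all genes tested. Casp8, higher in Cationorm, was the 1 gene among them with an unadjusted p under 0.05, beside 5.16% of all genes tested that were higher and 3.57% that were lower at that threshold. In 4 of the 31 (12.9%) the groups did not overlap, 3 above and 1 below Control, beside 14.8% of all genes tested (8.73% above and 6.09% below), so the share of the apoptosis genes was near the background.

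The intervals were narrow for most of these genes. In 26 of 31 (83.9%) the 95% interval of the log2 fold change lay inside a 1.5-fold change in either direction, as it did in 53% of all genes tested. The 5 exceptions were Bid, Bbc3, Pmaip1, Fas and Tnfrsf10b, and of these Bbc3, Pmaip1 and Fas were at less than 4 CPM in every library. DESeq2 called 0 of these genes, and no fit that left out a library called any, including the fit without Cationorm 3, in which 350 genes were called over the whole table, 335 of them lower.

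**Figure D1:**
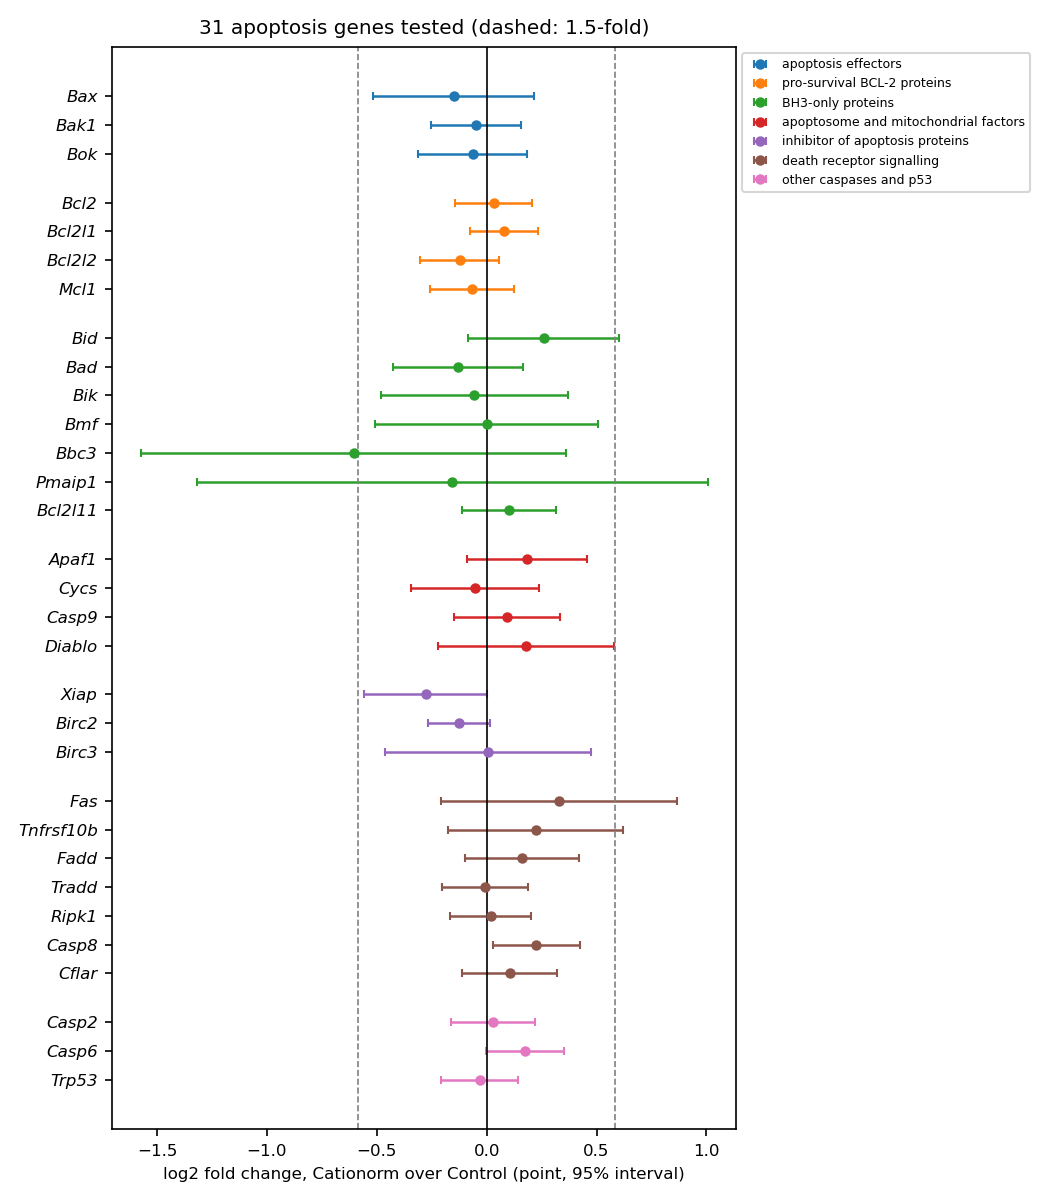
Log2 fold change of Cationorm over Control with its 95% interval (x axis) for the 31 tested apoptosis genes (y axis), coloured by role, with dashed lines at a 1.5-fold change. Most intervals cross 0 and stay inside the dashed lines, and those of Bbc3 and Pmaip1 are the widest.

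The genes whose groups did not overlap were Casp8, Casp6 and Diablo, higher in Cationorm, and Birc2, lower in Cationorm. The 250 bases before the RefSeq transcription start of each are shown, because these are the only members with fully separated groups. The sequences are from RefSeq on GRCm38.p6, an older build than the GRCm39 that the submitters' processing notes list, and are written 5′ to 3′ in the direction of the gene. For Birc2, which has 2 listed starts, the outermost was taken. Capitals mark matches, on either strand, to any of 6 motifs: the GC box GGGCGG, the TATA box TATAAA, the cyclic AMP response element TGACGTCA, the E-box CACGTG, the p53 half-site and the NF-kB site.
Casp8, chr1:58802252-58802501, plus strand: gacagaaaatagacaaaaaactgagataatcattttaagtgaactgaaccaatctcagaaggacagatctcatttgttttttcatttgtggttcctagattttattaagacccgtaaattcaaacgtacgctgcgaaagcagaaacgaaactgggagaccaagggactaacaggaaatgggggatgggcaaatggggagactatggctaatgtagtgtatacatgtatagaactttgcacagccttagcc
Casp6, chr3:129901165-129901414, plus strand: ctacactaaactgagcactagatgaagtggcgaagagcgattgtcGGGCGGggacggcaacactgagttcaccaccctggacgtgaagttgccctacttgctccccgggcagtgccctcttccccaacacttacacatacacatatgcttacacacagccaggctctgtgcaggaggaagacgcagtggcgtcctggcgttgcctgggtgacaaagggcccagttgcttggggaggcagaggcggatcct
Diablo, chr5:123524165-123524414, minus strand: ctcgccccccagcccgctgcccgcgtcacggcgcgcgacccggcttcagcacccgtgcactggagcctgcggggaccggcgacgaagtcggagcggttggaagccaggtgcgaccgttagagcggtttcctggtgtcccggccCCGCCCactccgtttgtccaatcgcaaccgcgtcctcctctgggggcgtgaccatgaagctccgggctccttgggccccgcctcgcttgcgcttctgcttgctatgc
Birc2, chr9:7837058-7837307, minus strand: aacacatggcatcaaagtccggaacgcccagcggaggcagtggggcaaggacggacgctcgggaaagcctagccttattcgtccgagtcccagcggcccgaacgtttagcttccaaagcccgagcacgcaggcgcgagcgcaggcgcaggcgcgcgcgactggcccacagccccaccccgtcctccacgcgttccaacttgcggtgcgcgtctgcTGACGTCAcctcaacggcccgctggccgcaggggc
The Casp8 window held no match to the 6 motifs. Casp6 and Diablo each held 1 GC box, a motif present in 32.7% of all 32841 promoter windows of this length and in 25 of the 40 windows (62.5%) listed for 28 of the 32 genes. Birc2 held 1 cyclic AMP response element, starting 35 bases before the transcription start, a motif found in 1.55% of all windows and in 2 of the 40 windows, those of Birc2 and Cycs. A Birc2 window that is not shown held a GC box, so the motifs given depend on the start taken. A match describes the letters of the window only.

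Casp8, the initiator caspase of death receptors, was at 50.8, 46.2 and 42.6 CPM in Cationorm 1 to 3, against 38.5, 38.9 and 42.1 CPM in Control 1 to 3. All Cationorm libraries lay above all Control libraries, but Cationorm 3 and Control 3 were separated by little. The log2 fold change was 0.22 ± 0.08 (SE), with a 95% interval of 0.03 to 0.42, and it did not pass (edgeR, unadjusted p = 0.0315, adjusted p = 0.550). Without Cationorm 1 the log2 fold change was 0.16, and over all alternatives the adjusted p lay between 0.189 and 0.862. The order of the libraries by Casp8 was that of the summed CPM of the 6 iris and pigment cell markers, except that Control 1 and Control 2 changed places. The 2 were set side by side after their values were seen. Casp6 and Diablo also fell from Cationorm 1 to Cationorm 3 and lay above all Control libraries. The pigment markers summed to 1448, 1173 and 1146 CPM in Cationorm 1 to 3 and to 480.3, 414 and 1029 CPM in Control 1 to 3. All 6 were higher in Cationorm at an unadjusted p under 0.05 (edgeR). Of them 0 were called, and none was at 0 in any library. For Dct, a pigment enzyme of that list, the values were 687, 587 and 556 CPM in Cationorm 1 to 3 and 226, 209.8 and 489.9 CPM in Control 1 to 3. Not every marker kept the order of the sum. Tyrp1, named after its values were seen, was at 206.7 CPM in Cationorm 2 and 210.5 CPM in Control 3. The part of pigmented tissue in the Casp8 difference was not tested.

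Casp6, an effector caspase that cleaves nuclear lamins, was at 24.5, 23.3 and 22.6 CPM in Cationorm 1 to 3, against 20.7, 20.9 and 20.8 CPM in Control 1 to 3. The Control libraries were nearly equal and all Cationorm libraries lay above them. The log2 fold change was 0.17 ± 0.08 (SE), with a 95% interval of -0.0053 to 0.35 (edgeR, unadjusted p = 0.0555, adjusted p = 0.550). Casp2, a caspase linked to DNA damage and mitotic stress, differed less, at 60.7, 56.9 and 50.8 CPM in Cationorm 1 to 3 and 54.6, 57.3 and 53.2 CPM in Control 1 to 3, and its groups overlapped.

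**Figure D2:**
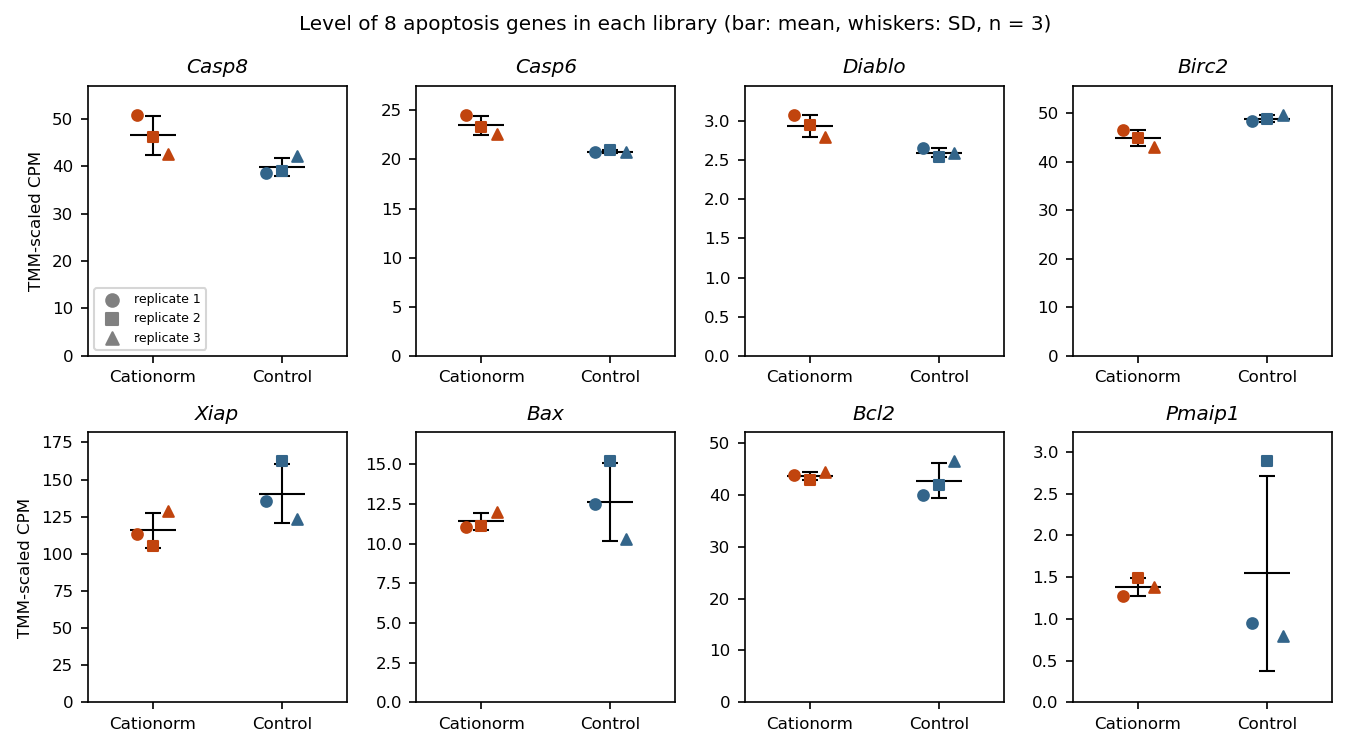
TMM-scaled CPM (y axis, from 0) of 8 apoptosis genes in the Cationorm and Control libraries (x axis), with 1 symbol per replicate number, the mean as a bar and the SD as whiskers (n = 3). The groups are separate for Casp8, Casp6, Diablo and Birc2 and overlap for Xiap, Bax, Bcl2 and Pmaip1, with Control 2 highest for Xiap, Bax and Pmaip1.

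In the death receptor group, 6 of the 7 tested genes were higher in Cationorm, and none was called. Fas, the receptor of Fas ligand, was at 2.44, 3.90 and 3.27 CPM in Cationorm 1 to 3 and 2.30, 2.80 and 2.56 CPM in Control 1 to 3. Its groups overlapped, and its log2 fold change of 0.33 ± 0.23 (SE) was 0.15 without Cationorm 2, its highest library, and 0.49 without Cationorm 1. Tnfrsf10b, the mouse TRAIL receptor, had a log2 fold change of 0.22 ± 0.17 (edgeR, adjusted p = 0.636), and its lowest library was Control 3, at 12.2 CPM. It was 0.065 without Control 3 and 0.39 without Control 1 (edgeR, adjusted p = 0.844). The adaptor Fadd had a log2 fold change of 0.16 ± 0.11, and the caspase 8 inhibitor Cflar had 0.10 ± 0.09. Fadd was at 0.057 without Cationorm 2, and Cflar at 0.026 without Control 1 and 0.18 without Control 2. The TNF receptor adaptor Tradd, at -0.0065 ± 0.08, and the kinase Ripk1, at 0.02 ± 0.08, differed least in this group. Ripk1 turns TNF receptor signals toward survival or death.

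Fasl, which encodes the ligand of Fas, was the gene that the low-count filter removed. It had 2, 0 and 2 counts in Cationorm 1 to 3 and 2, 6 and 2 counts in Control 1 to 3, so that 3 counts, a level of 0.0750 to 0.0952 CPM depending on the library, were reached in Control 2 only. At this depth no difference was detectable. The 6 T and NK cell markers were near the same limit, with sums of 0.451 to 0.745 CPM in Cationorm and 0.450 to 0.923 CPM in Control, and Cd3e, Cd3d and Klrd1 had 0 counts in at least 1 library. Which cells the Fasl counts came from was not tested. All counts of Fasl were even, as were 63.9% of all counts from 1 to 20, so a fragment may have added more than 1 count, which would raise these limits.

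The inhibitor of apoptosis proteins bind caspases or ubiquitinate their partners. Xiap, which blocks caspases directly, was at 113, 106 and 129 CPM in Cationorm 1 to 3 and 136, 162 and 123 CPM in Control 1 to 3. The groups overlapped through Control 3, and Control 2 was the highest. The log2 fold change was -0.28 ± 0.12 (SE), with a 95% interval of -0.56 to 0.0024 (edgeR, unadjusted p = 0.0515, adjusted p = 0.550), and it was -0.18 without Control 2. Birc2, a ubiquitin ligase of TNF receptor complexes, was at 46.4, 44.9 and 43.0 CPM in Cationorm 1 to 3 and 48.3, 48.7 and 49.6 CPM in Control 1 to 3, with no overlap. Its log2 fold change was -0.12 ± 0.06 (edgeR, unadjusted p = 0.0764, adjusted p = 0.550). Birc3, its close relative and an NF-kB target, was spread from 16.2 to 22.2 CPM in Cationorm and from 13.9 to 22.6 CPM in Control, with a log2 fold change of 0.0077 ± 0.20.

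Of the apoptosome and mitochondrial factors, 3 of 4 were higher in Cationorm, and none was called. Apaf1, the scaffold of the apoptosome, was at 22.1, 23.4 and 23.7 CPM in Cationorm 1 to 3 and 18.5, 23.7 and 18.7 CPM in Control 1 to 3. Control 1 and Control 3 lay below all Cationorm libraries, while Control 2 was not. The log2 fold change was 0.18 ± 0.12 (SE), 0.12 without Control 1 and 0.29 without Control 2 (edgeR, adjusted p = 0.774). Casp9, the caspase that the apoptosome activates, had a log2 fold change of 0.09 ± 0.10, and the cytochrome c gene Cycs had -0.05 ± 0.12. Diablo, which relieves caspases from XIAP, was at 3.08, 2.95 and 2.79 CPM in Cationorm 1 to 3 and 2.65, 2.54 and 2.59 CPM in Control 1 to 3, with no overlap. These levels rest on 97, 111 and 105 counts in Cationorm and 106, 88 and 91 counts in Control, and the log2 fold change of 0.18 ± 0.17 did not pass (edgeR, unadjusted p = 0.328, adjusted p = 0.707).

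The 3 effectors that open the mitochondrial membrane had log2 fold changes between -0.15 and -0.05, and none was called. Bax was at 11.1, 11.1 and 12.0 CPM in Cationorm 1 to 3 and 12.5, 15.2 and 10.3 CPM in Control 1 to 3. The Cationorm libraries were close to each other and lay within the Control range, and the log2 fold change was -0.15 ± 0.16 (SE). It was -0.016 without Control 2 and -0.28 without Control 3. Bak1, which acts alongside Bax, was also highest in Control 2, at 39.0 CPM against 32.6 to 34.7 CPM in the other libraries, and had a log2 fold change of -0.05 ± 0.09, which was 0.016 without Control 2. Bok, a less studied effector of the same family, ranged from 61.5 to 79.7 CPM in Cationorm and from 69.5 to 73.9 CPM in Control, and its log2 fold change of -0.06 ± 0.10 was 0.0052 without Cationorm 3 and -0.21 without Cationorm 2.

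The 4 pro-survival genes, whose proteins hold the effectors in check, had log2 fold changes between -0.12 and 0.08. Bcl2 was at 43.9, 42.8 and 44.3 CPM in Cationorm 1 to 3 and 39.8, 41.8 and 46.4 CPM in Control 1 to 3. Bcl2l1, which encodes BCL-XL, was at 105, 115 and 107 CPM in Cationorm 1 to 3 and 106, 98.4 and 105 CPM in Control 1 to 3, a log2 fold change of 0.08 ± 0.07 (SE). Mcl1, a short-lived member, had -0.07 ± 0.08, and Bcl2l2, which encodes BCL-W, had -0.12 ± 0.08, or -0.055 without Control 1. The interval of each of the 4 lay inside a 1.5-fold change.

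The ratio of Bax to Bcl2 within a library is a usual summary of the balance between death and survival genes. It was 0.253, 0.259 and 0.271 in Cationorm 1 to 3 and 0.313, 0.363 and 0.222 in Control 1 to 3, with means of 0.261 ± 0.00958 in Cationorm and 0.299 ± 0.0716 in Control (SD, n = 3). The Cationorm libraries were closely alike and lay inside the Control range. The ratio of Bcl2l1 to Bax was 9.46, 10.4 and 8.94 in Cationorm 1 to 3 and 8.48, 6.48 and 10.3 in Control 1 to 3, again with overlap. These ratios carry no test, and as the genes differ in length they say nothing of which transcript was more abundant.

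**Figure D3:**
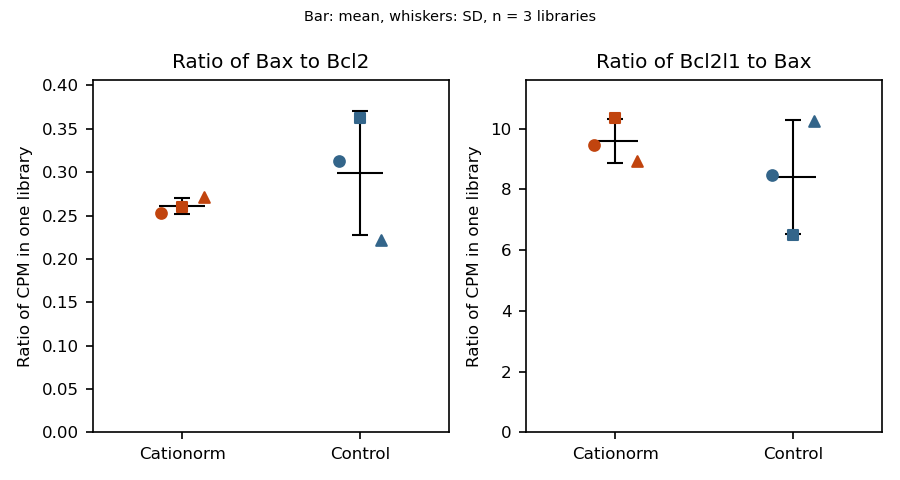
Ratio of Bax to Bcl2 and of Bcl2l1 to Bax within each library (y axes, from 0) in Cationorm and Control (x axis), with 1 symbol per replicate, the mean as a bar and the SD as whiskers (n = 3). The Cationorm libraries sit between 0.253 and 0.271 for Bax to Bcl2, inside the Control range of 0.222 to 0.363.

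Among the role groups of the 32 genes, the BH3-only genes had the widest range, from -0.61 to 0.26 on the log2 scale, with 3 of 7 higher in Cationorm and none called. Bid, which links death receptors to the mitochondrial route once caspase 8 cuts it, was at 19.8, 16.4 and 15.2 CPM in Cationorm 1 to 3 and 12.2, 14.5 and 16.2 CPM in Control 1 to 3. The groups overlapped, and the log2 fold change was 0.26 ± 0.15 (SE), or 0.14 without Cationorm 1 and 0.16 without Control 1. Bbc3, which encodes PUMA, a p53 target, was at 0.444, 0.823 and 1.44 CPM in Cationorm 1 to 3 and 1.201, 1.41 and 1.54 CPM in Control 1 to 3. Cationorm 1 and 2 lay below all Control libraries and Cationorm 3 did not, and the log2 fold change was -0.61 ± 0.41 (edgeR, unadjusted p = 0.183, adjusted p = 0.607). It was -0.29 without Cationorm 1 and -1.11 without Cationorm 3 (edgeR, adjusted p = 0.227). Pmaip1, which encodes NOXA, another p53 target, was at 1.27, 1.49 and 1.38 CPM in Cationorm 1 to 3 and 0.9505, 2.89 and 0.797 CPM in Control 1 to 3. Its level in Control 2 was above all other libraries, its log2 fold change was -0.16 ± 0.49, and without Control 2 it was 0.64. Bcl2l11, which encodes BIM, had a log2 fold change of 0.10 ± 0.09 (0.011 without Control 2), and Bad, whose protein is held inactive by phosphorylation, had -0.13 ± 0.13, between -0.21 without Cationorm 2 and -0.071 without Cationorm 3. Bik, an endoplasmic reticulum member, had -0.06 ± 0.18, and Bmf, which is tied to the cytoskeleton, was at the same mean in both groups, 11.9 CPM.

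Trp53, the gene of the transcription factor p53, was at 72.8, 74.2 and 67.7 CPM in Cationorm 1 to 3 and 69.8, 79.1 and 70.6 CPM in Control 1 to 3, a log2 fold change of -0.03 ± 0.07 (SE). It too was highest in Control 2, as were Bax, Bak1, Mcl1, Pmaip1, Xiap, Tradd and Cflar, 8 of the 31 tested genes (25.8%). Over all genes tested, 22.9% were highest in Control 2, so that this count stood close to the background.

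Among 16 p53 target genes, a list that holds none of the apoptosis genes above, Control 2 was the highest library for 9 (56.2%). This compares with 22.9% of all genes tested. Trp53inp1, a p53-induced gene, was at 24.7, 21.4 and 36.4 CPM in Cationorm 1 to 3 and 29.4, 48.2 and 21.0 CPM in Control 1 to 3. Eda2r, a death receptor relative that p53 induces, was at 1.17, 0.743 and 1.78 CPM in Cationorm 1 to 3 and 0.750, 3.52 and 1.71 CPM in Control 1 to 3. Both were highest in Control 2. They, Ccng1 and Krt14 were named after their values were seen. In the comparison of groups, 14 of the 16 targets were lower in Cationorm, beside 9178 of 18804 genes tested. None was called, and their median log2 fold change was -0.07, beside 0.0055 over all genes tested. Without Control 2, 8 of 16 were lower and the median was 0.0021. As Control 2 was the highest library for most of these genes, that fall was partly built in. With any other library left out, 11 to 14 of the 16 were lower. These counts describe the 16 only, and Bbc3 and Pmaip1, named above as p53 targets, are not among them. Of the apoptosis genes left out, Fas (log2 fold change 0.33), Tnfrsf10b (0.22) and Apaf1 (0.18) were higher in Cationorm. Bbc3 (-0.61), Pmaip1 (-0.16) and Bax (-0.15) were lower. Of the genes just named, Pmaip1 and Bax were highest in Control 2 and the others were not. Krt14, the basal keratin, was also highest in Control 2, at 1105, 696 and 1169 CPM in Cationorm 1 to 3 and 746, 1790.3 and 673 CPM in Control 1 to 3, and its part in the p53 pattern was not tested.

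**Figure D4:**
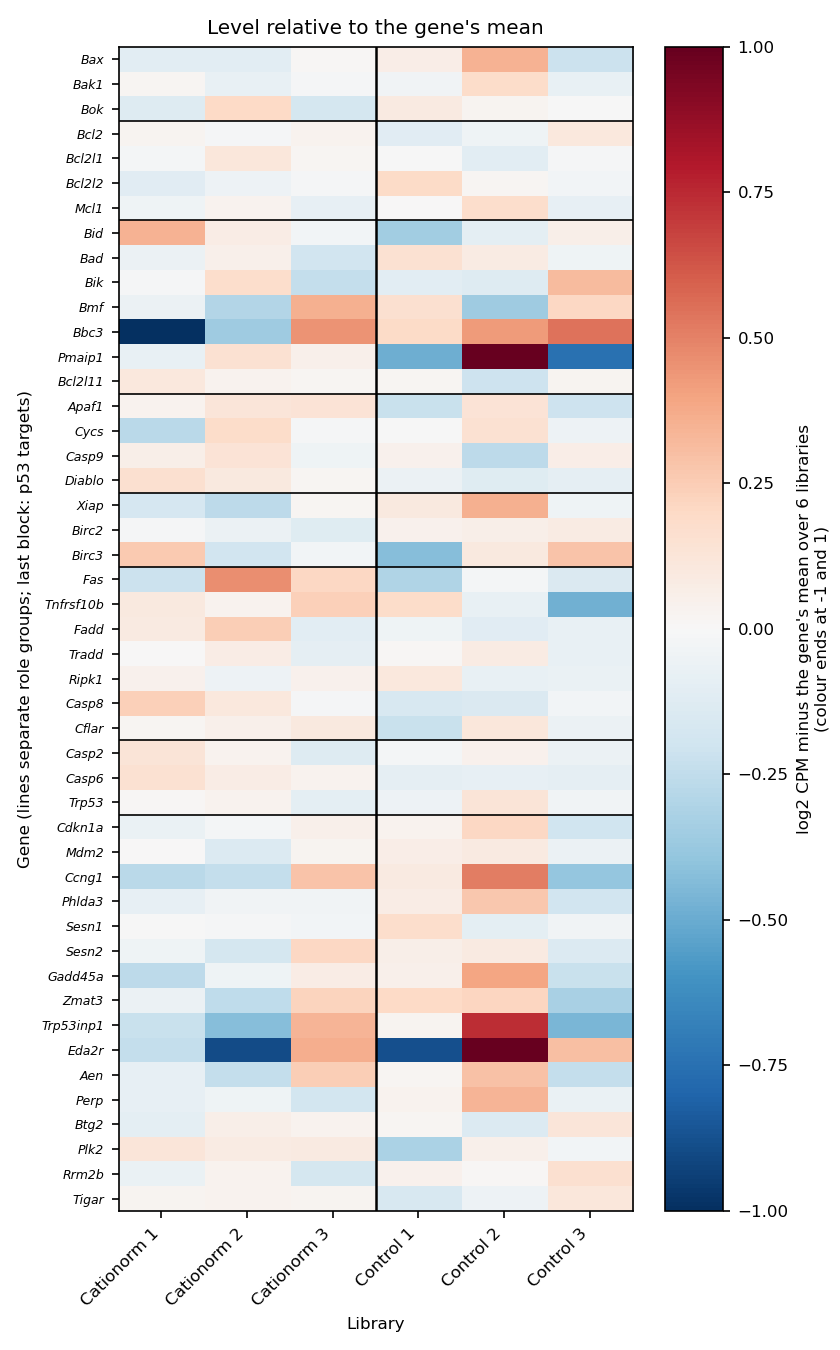
Log2 CPM minus the gene's mean over the 6 libraries (colour, ending at -1 and 1) for the 31 tested apoptosis genes by role and, in the last block, 16 p53 targets (y axis), in each library (x axis). Control 2 stands out in red for Pmaip1, Eda2r, Trp53inp1 and Ccng1, the last 3 of which are p53 targets outside the 31.

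In the wider pathway, 0 genes of 6 related lists, chosen with earlier results of these data known, were called. The p53 targets with the smallest p were Perp, a desmosomal protein, with a log2 fold change of -0.22 ± 0.11 (SE), and the kinase Plk2, with 0.19 ± 0.10. Other BCL-2 family genes were split 3 higher and 3 lower of 6 tested, with a median of 0.0022. Their smallest p belonged to the mitophagy receptor Bnip3 (-0.44 ± 0.24) and to Bcl2l13 (0.11 ± 0.08). Of 10 TNF receptor and ligand genes, 5 were higher and 5 lower, led by Tnfaip3, an inhibitor of NF-kB (-0.39 ± 0.27), and the receptor Tnfrsf1b (0.37 ± 0.29).

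Of 8 genes of DNA fragmentation and mitochondrial release, 4 were higher and 4 lower, and in 3 (Dffa and Parp1 above Control, Htra2 below) the groups did not overlap. That is 37.5% of a list of 8, beside 14.8% of all genes tested. Parp1, a DNA break sensor that caspases cut, was at 79.1, 85.1 and 78.9 CPM in Cationorm 1 to 3 and 74.5, 72.5 and 75.7 CPM in Control 1 to 3, with no overlap (log2 fold change 0.13 ± 0.06 SE, edgeR adjusted p = 0.550). Htra2, a mitochondrial protease that counters XIAP, had -0.21 ± 0.10. Of 8 tested genes for the clearance of dead cells, 6 were higher, with a median log2 fold change of 0.15 beside 0.0055 over all genes tested. Pros1, a ligand that bridges dying cells to phagocyte receptors, was at 17.4, 12.6 and 13.4 CPM in Cationorm 1 to 3 and 10.5, 11.5 and 12.4 CPM in Control 1 to 3, with no overlap, while the engulfment gene Elmo1 had a log2 fold change of -0.48 ± 0.21. The 6 macrophage and myeloid markers (Adgre1 first), which mark the main phagocytes, were split 3 higher and 3 lower, with sums of 129.8 to 133 CPM in Cationorm and 102 to 159 CPM in Control, and none was at 0. The pigment markers given beside Casp8 and the vascular endothelium markers were higher in Cationorm in 6 of 6 genes each, and the endothelium markers (Pecam1 first) summed to 77.5 to 87.8 CPM in Cationorm and 52.2 to 90.2 CPM in Control, none at 0. Cationorm 1 was the highest library for 4 of the 8 clearance genes (50%), beside 21.4% of all genes tested. The part of these tissues and of Cationorm 1 in the clearance list was not tested. In the pyroptosis and necroptosis list, 4 of 8 tested genes were higher, with 0.76 ± 0.45 for the inflammatory caspase Casp1 and -0.11 ± 0.10 for the inflammasome adaptor Pycard.

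**Figure D5:**
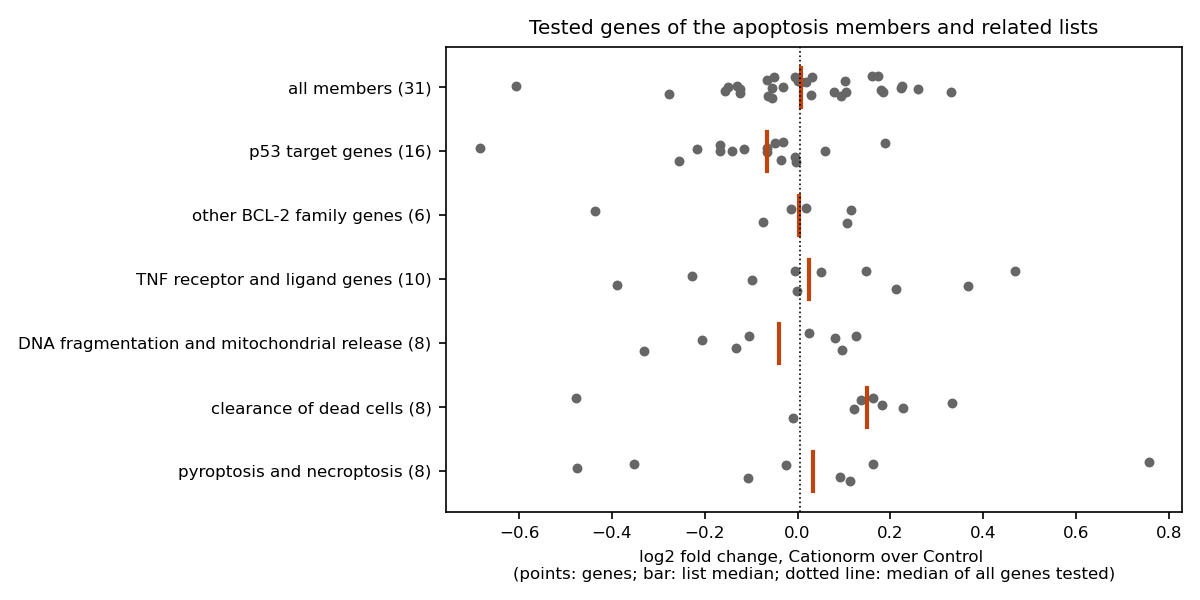
Log2 fold change of Cationorm over Control (x axis) for each tested gene of the apoptosis group and of 6 related lists (y axis, number tested in brackets), with the list median as a bar and the median of all genes tested as a dotted line. The medians run from -0.07 for the p53 targets to 0.15 for the clearance genes, and single genes lie on both sides of 0 in every list.

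The counts of 10 of the 32 genes are less certain, because their exons overlap those of another gene in the GENCODE vM21 annotation and the strand setting of the counting is not given in the sources used here. They are Bad, Bak1, Bax, Bcl2, Bcl2l2, Bid, Casp9, Diablo, Fadd and Ripk1. Bid, at 12.2 to 19.8 CPM, shares 628 exon bases with Bcl2l13 on the opposite strand, which had 7931 to 10248 counts per library. Diablo shares 1193 exon bases with the read-through gene model Gm49027 on its own strand, which had at most 11 counts. Diablo also shares 1326 exon bases with B3gnt4 on the opposite strand, whose symbol the deposited counts do not hold. Casp8, Casp6, Xiap and Birc2 overlapped no annotated exon of another gene.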

How the data were processed

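Per the labels' protocols, TRIzol was used for corneal RNA, and TruSeq libraries followed mRNA enrichment. The table that the authors deposited holds raw whole-number counts per gene symbol. DESeq2, GRCm39 and mm39 stand in the submitters' processing notes without a role. Aligner, counting tool, annotation and strandedness are not given in the sources.

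Columns were matched to samples by title. The filterByExpr filter kept 18804 of 35673 genes, with at least 99.9% of each library's counts. After TMM scaling, Cationorm was tested over Control with the two-sided quasi-likelihood test of edgeR 4.0.16 (R 4.3.3). There were no covariates, and p-values were adjusted by the Benjamini-Hochberg method over all 18804 genes. SE came from the log2 fold change and its F statistic, and 95% intervals used the moderated degrees of freedom. The procedure was also run on simulated counts as a check of the code. Its power with 3 libraries per group is not given here. Limits of 3 counts cover counting error only.

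The apoptosis genes, the related lists and the rule for naming genes were chosen with earlier results of these data known. All 32 genes are named, with 2 genes of each related list by smallest p and the first gene of each marker list. Vascular endothelium (Pecam1) and keratocyte (Kera) markers were also counted: 6 of 6 endothelial markers and 3 of 6 keratocyte markers were higher in Cationorm, 0 called in either. Kera itself was lower, at 152, 73.5 and 71.6 CPM in Cationorm 1 to 3 and 186, 169 and 173 CPM in Control 1 to 3. Its groups did not overlap, and its log2 fold change was -0.83 ± 0.28 (SE, edgeR adjusted p = 0.550). Alternatives were DESeq2 1.42.0 and limma-voom (limma 3.58.1), 2 other scalings, 2 other filters, a robust fit, the replicate number as a block, and leaving out each library.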

Additional observations from a re-analysis of the deposited data

How the results depend on the processing

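No alternative called any of the 31 tested genes or any gene of the related lists. Over all genes, the count called was 0 in the edgeR fits with all 6 libraries and in limma-voom, 64 with DESeq2 (57 higher and 7 lower) and between 0 and 350 when 1 library was left out, with 350 without Cationorm 3, 8 without Control 3 and 1 without Control 2. The cause was not tested. The replicate numbers did not pair the libraries: the deviations of same-numbered libraries correlated at -0.20, -0.34 and -0.21, and the replicate block called 0 genes. Between groups, libraries with different numbers correlated at -0.19 to 0.42. The positive values were those of Cationorm 2 with Control 3 (0.42), Cationorm 1 with Control 2 (0.35) and Cationorm 3 with Control 1 (0.26). Deviations cancel out within a group, which constrains these correlations. A block by those pairs was not fitted. By log2 CPM itself, Cationorm 3 and Control 3 were the closest of all pairs (r = 0.994), while pairs within a group reached at most 0.989.

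Of 434 log2 fold changes of the 31 genes under alternatives, 405 kept their direction and 29, in 13 genes, did not. None of the 434 values was called. Bmf, at 0.000085, was -0.0064 with DESeq2 size factors, -0.0053 with upper-quartile factors, -0.0045 with no filter, -0.0022 with the stricter filter, -0.0032 with the replicate block, -0.0068 with DESeq2 and -0.0078 with limma-voom. Pmaip1 was 0.061 with the replicate block and 0.10 with limma-voom. With each library left out in turn, the range was -0.20 to 0.13 for Bmf, -0.47 to 0.64 for Pmaip1, -0.10 to 0.016 for Bak1, -0.21 to 0.0052 for Bok, -0.015 to 0.096 for Bcl2, -0.18 to 0.10 for Bik, -0.18 to 0.055 for Cycs, -0.022 to 0.15 for Casp9, -0.17 to 0.16 for Birc3, -0.063 to 0.034 for Tradd, -0.032 to 0.081 for Ripk1, -0.031 to 0.096 for Casp2 and -0.075 to 0.0091 for Trp53. Casp8 stayed above 0 in all 14 alternatives and Xiap below 0. The p53 count without each library, chosen after seeing the data, ran from 8 to 14 of 16 lower.

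Counts per library were at most 111 for Fasl, Bbc3, Pmaip1 and Diablo. For Fasl, with at most 6, depth allowed no test.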
